A study of Mus musculus with 3 samples.

Results

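Il1b-positive Lyve1-low macrophages were examined in leukocytes of the aortic wall of mice, by single-cell RNA sequencing with hashtag and surface antibodies counted in the same droplets (CITE-seq). The cells were selected on their own measured values: the C1q genes C1qa, C1qb and C1qc summed to at least 20 UMIs (unique molecular identifiers, counts of captured RNA molecules) per 10000 UMIs of the cell, the resident-macrophage genes Lyve1, Folr2, F13a1 and Cbr2 summed to under 15, and Il1b was at 5 or more. Cells with any UMI of Cd79a or Cd3e, B and T cell genes, were left out. This gave 513 cells of 2528 macrophages, 5348 kept cells and 8471 deposited barcodes. The comparison population, called resident macrophages here, was the 1636 macrophages with the 4 resident genes at 15 or more, and 379 macrophages fell in neither group.

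The mice were littermates on a C57BL/6 background, male and female, with no drug treatment, and their age is not given in the sources used here. Jak2WT mice were the controls, named as wild type for Jak2. Whether they carried the Flex allele or LysM-Cre is not given in the sources used here. Jak2V617F Myel mice carried the activating V617F form of Jak2 (Jak2V617F WT/Flex) switched on by LysM-Cre, a Cre recombinase that acts mainly in macrophages, monocytes and neutrophils. There were 5 Jak2WT mice (hashtags 1 to 5), 3 Jak2V617F Myel mice without aneurysm, described by the study as having dilated aortas and called dilation mice here (hashtags 6, 8 and 10), and 2 Jak2V617F Myel mice with aneurysm (hashtags 7 and 9), and each is called by its hashtag number. Every mouse received an intravenous anti-CD45.2-APC antibody, so that blood leukocytes could be left out at the sort, and all 10 were pooled in 1 sort and 1 droplet run, in which the cells of the 2 genotypes were set to about equal numbers. The RNA, antibody and hashtag libraries (3) were made from the same droplets and share their barcodes, and no barcode occurred more than once. The female transcript Xist stood at 760 to 909 UMIs per 1000000 gene UMIs in mice 1, 2, 6 and 7 and at 9.36 to 38.3 in the other 6, so the aneurysm mice were 1 of each sex.

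Kept cells summed to 1670685 gene UMIs in the shallowest mouse (mouse 4, 135 cells) and 13846376 in the deepest (mouse 9, 979 cells). The selected cells numbered 8, 10, 4, 3 and 49 in mice 1 to 5, 11, 11 and 67 in mice 6, 8 and 10, and 172 and 178 in mice 7 and 9. Their median was 16080 UMIs per cell, against 10550.5 in resident macrophages. Each level below is the number of UMIs of a gene per 1000000 gene UMIs, after adding up a population's cells in each mouse, and 1 gene's level is not compared with another's.

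Macrophages of the vessel wall are of several kinds. Lyve1-expressing cells of the adventitia maintain themselves locally, take up debris and carry the scavenger receptors CD163 and CD206, whereas macrophages that derive from Ccr2-expressing blood monocytes enter the wall in inflammation. Interleukin-1β, the product of Il1b, is made as an inactive precursor after Toll-like or cytokine receptors activate NF-kB, and is cut to its active form by caspase-1 in the NLRP3 inflammasome. It acts through the IL-1 receptor on endothelium, smooth muscle and leukocytes, and it is opposed by the receptor antagonist encoded by Il1rn. Mmp12, a macrophage elastase, breaks down elastin, the protein whose loss marks aneurysm, and Spp1 encodes osteopontin, a secreted matrix protein of lipid-laden macrophages.

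The 5 genes that name the population were read first, as levels. Bcl2a1d, Mmp12 and Ccr2 are also counted among the NF-kB, matrix protease and monocyte genes, and Spp1 among the lipid-associated genes. In the 7 mice with at least 10 selected cells (mice 2 and 5 to 10), Il1b lay between 3040 and 5383 (median 4547) in the selected cells and between 194 and 802 in resident macrophages, which follows from the selection. B cells of the same droplets, which should lack it, held Il1b at 99.7. Bcl2a1d, an anti-apoptotic NF-kB target, lay between 95.0 and 364 (median 269) against 16.1 to 54.9, without overlap. Mmp12 ran from 8.42 to 196 (median 41.1) against 2.27 to 24.0, and Ccr2, the receptor for the monocyte chemokine CCL2, from 34.3 to 525 (median 274) against 57.2 to 159. Spp1 ran from 0 to 1113 (median 25.4) against 5.55 to 78.2. Against resident macrophages of the same mouse, Bcl2a1d and Mmp12 were higher in 7 of 7 mice, Ccr2 in 5 and Spp1 in 4, and across mice the ranges of Mmp12, Ccr2 and Spp1 overlapped.

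The selected cells were of at least 2 kinds. In 103 of the 513, Saa3, Prg4 and Alox15 together stood at 10 or more UMIs per 10000, a limit set after the values were seen, and only 1 cell lay between 5 and 20. Of these 103 cells, 94 came from mouse 5 (40 cells, Jak2WT) and mouse 10 (54 cells, dilation), 1 from mouse 7 and none from mouse 9. Summed over cells, they held Spp1 at 3.54, Mmp12 at 6.63, Ccr2 at 20.8 and Bcl2a1d at 80.0, whereas the other 410 cells held Spp1 at 728, Mmp12 at 175, Ccr2 at 433 and Bcl2a1d at 300. Spp1, Mmp12 and Ccr2 were therefore low in the Saa3-high cells. These sums pool the mice unequally, and Spp1 in Saa3-low cells varied widely among mice, as given below. Il1b, at 3288, was high in them as in the Saa3-low cells (5114), and Bcl2a1d lay between the Saa3-low cells and resident macrophages (30.2 over all mice).

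The 3 genes that formed the split are given as a description. Saa3, an acute-phase serum amyloid, stood at 4938 against 6.59 in Saa3-low cells, Prg4, a lubricating proteoglycan, at 5756 against 5.06, and the lipoxygenase gene Alox15 at 1958 against 1.53. The protease inhibitor genes Slpi (9279 against 8.28) and Serpinb2 (2632 against 11.2) and fibronectin Fn1 (9952 against 428) were high in the same cells. The transcription factor Gata6 was at 43.3 against 1.23, Selp at 435 against 1.23 and Icam2 at 533 against 7.67. In turn the MHC class II gene H2-Aa was at 150 in Saa3-high and 4655 in Saa3-low cells, and the invariant chain Cd74 at 591 and 12255. The label Il1b-positive inflammatory macrophage therefore did not hold for these 103 cells by Spp1, Mmp12 and Ccr2, while Bcl2a1d lay above its level in resident macrophages, and counts of genes are given with all selected cells and with the 410 Saa3-low cells, of which 349 came from the aneurysm mice and 61 from the other 8.

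In the Saa3-low cells the markers varied among mice as well. Spp1 stood at 375 and 1113 in aneurysm mice 7 and 9, at 847 in mouse 10 (dilation), at 221 and 111 in mice 1 and 4 (Jak2WT), at 30.01 in mouse 6 and 9.71 in mouse 5, and at 0 in mice 2, 3 and 8. Mmp12 stood at 198 and 178 in mice 7 and 9, at 262, 169 and 90.4 in mice 5, 10 and 2, at 13.5 and 10.0 in mice 8 and 6, and at 0 in mice 1, 3 and 4. In mice 2, 5, 6 and 10 the sums rest on 9 to 13 cells, and in mice 1, 3, 4 and 8 on 7, 4, 3 and 6. A level of 0 in any of these mice need not mean absence. Ccr2 was read in every mouse, from 111 to 603, with the aneurysm mice at 340 and 525 inside that range. Neither Spp1 nor Mmp12 was limited to cells with Il1b: the 379 Lyve1-low macrophages below the Il1b limit held Spp1 at 783 and Mmp12 at 185.

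**Figure D1:**
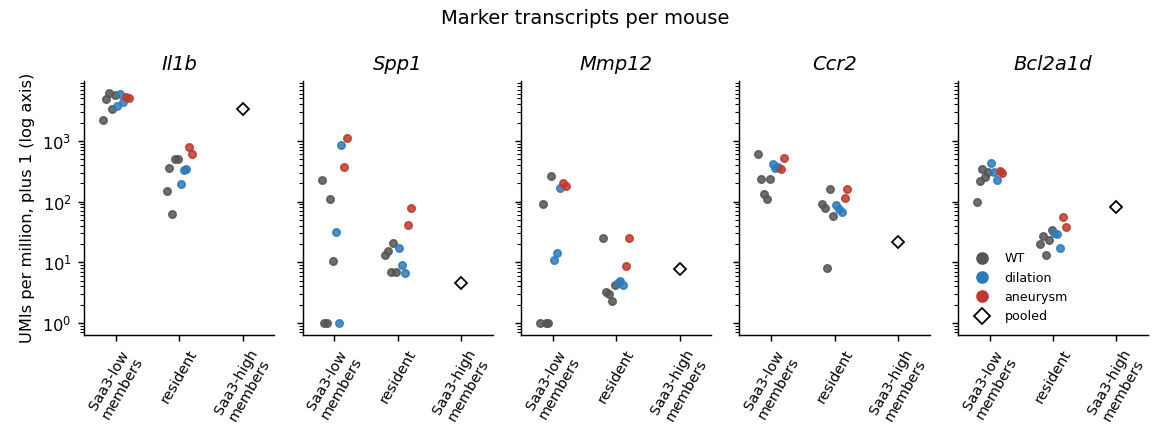
Levels of Il1b, Spp1, Mmp12, Ccr2 and Bcl2a1d as UMIs per 1000000 gene UMIs of the summed cells, plus 1, on a log axis, with 1 point per mouse (10 mice, coloured by group) for Saa3-low selected cells and resident macrophages and a diamond for all Saa3-high selected cells pooled. Bcl2a1d in Saa3-low cells lay between 98.4 and 430, above resident macrophages in each mouse, while Spp1 ran from 0 to 1113.

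The limits cut through a continuous range of Il1b. Of the selected cells, 34 had Il1b between 5 and 7 UMIs per 10000, and 34 other cells that met the remaining limits had 3 to 5. Among Lyve1-low macrophages, 231 held no Il1b UMI and 148 held some but fewer than 5. The resident sum was between 10 and 15 in 29 selected cells, and 147 resident macrophages had Il1b at 5 or more, 33 of them with a resident sum between 15 and 20.

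The share of macrophages that were Il1b-positive and Lyve1-low was highest in the 2 mice with aneurysm. It was 37.6% (95% exact binomial interval 33.2 to 42.3%) in mouse 7 and 33.2% (29.2 to 37.4%) in mouse 9. In the 3 dilation mice it was 6.59%, 5.76% and 15.5% (mice 6, 8 and 10), and in the 5 Jak2WT mice 5.84%, 6.58%, 2.88%, 4.35% and 19.8% (mice 1 to 5). Both aneurysm mice lay above all 8 others, with mice 5 and 10 nearest to them. The mean was 35.4 ± 3.13% (SD, n = 2) against 8.41 ± 5.94% (SD, n = 8), so they lay 27.0 points apart (p = 0.0222 by a two-sided exact permutation of the mice, which is as low as 2 against 8 can go). Without mouse 7 or mouse 9 the difference was 24.8 or 29.2 points (exact permutation test, p = 0.111, the floor for 1 against 8).

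Without the Saa3-high cells the aneurysm mice were at 37.7% and 33.5%, and the other 8 closed up to between 2.94% and 6.16%. Here mouse 5 came to 5.29% and mouse 10 to 3.99%, inside the range of the mice around them. The means were 35.6 ± 2.93% (SD, n = 2) and 4.69 ± 1.22% (SD, n = 8), 30.9 points apart (exact permutation test, p = 0.0222). Of all kept cells, the selected ones made up 18.5% and 18.2% in the aneurysm mice and 0.816% to 8.36% in the others. The makeup of the sorted leukocytes enters that share as well.

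**Figure D2:**
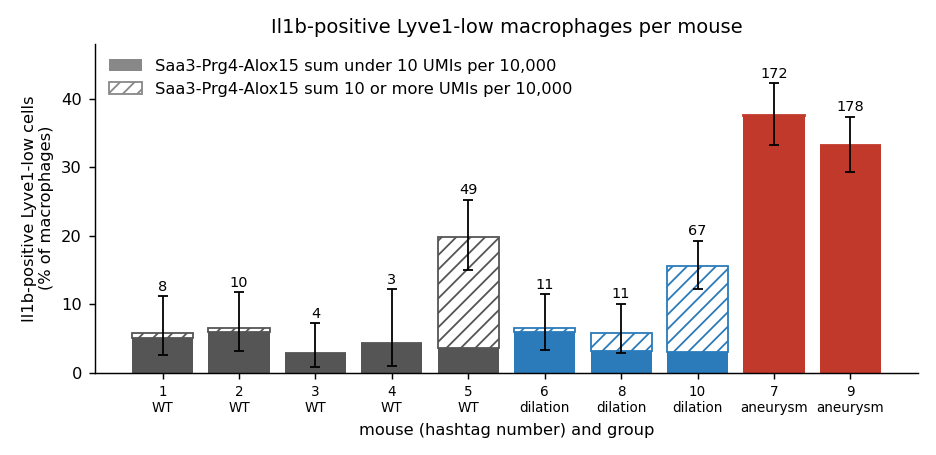
Share of each mouse's macrophages that were Il1b-positive and Lyve1-low, in percent, with Saa3-low cells as the solid and Saa3-high cells as the hatched part of each bar, the number of selected cells above it, and 95% exact binomial intervals for the whole bar. The aneurysm mice were at 37.6% and 33.2%, while 40 of the 49 selected cells of Jak2WT mouse 5 and 54 of the 67 of dilation mouse 10 were Saa3-high.

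Dilation without aneurysm did not separate from Jak2WT in this share. The means were 9.29 ± 5.41% (SD, n = 3) and 7.88 ± 6.79% (SD, n = 5), a difference of 1.40 points (exact permutation test, p = 0.786, smallest possible 0.0179), and it was -1.71 points without mouse 10 and 4.37 without mouse 5. All 5 Jak2V617F Myel mice against the 5 Jak2WT mice differed by 11.9 points (exact permutation test, p = 0.190, smallest possible 0.00794), with dilation and aneurysm mice far apart inside that group.

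RNA of the selected cells was summed per mouse and compared with resident macrophages of the same mice. The sums hold 498 selected cells from 7 mice, or 403 Saa3-low cells from 8 mice with at least 5 each. Of 9897 genes tested, 991 were higher in the selected cells (10.0%) and 1066 were lower (10.8%; edgeR quasi-likelihood F test with the mouse as a block, Benjamini-Hochberg adjusted p under 0.05). With Saa3-low cells alone 911 were higher (9.23%) and 1150 lower (11.6%) of 9872, and of the 1984 first called genes tested there, 1459 passed in the same direction and 0 in the opposite one. These shares over all genes are the background for the list counts below, and a count near them is not read as a result about the list. The same cells' UMIs formed the groups, and the tests do not part genes that go with Il1b from genes that go with low Lyve1. Summed over cells, Lyve1-low macrophages below the Il1b limit held Thbs1 at 1207 against 1196 in the selected cells, Cd9 at 435 against 453, Lgals3 at 1166 against 1127, Gngt2 at 212 against 208 and Gapdh at 837 against 777, but Bcl2a1d at 75.8 against 243 and Nlrp3 at 445 against 760. Both sums include cells rich in the 6 genes of Saa3-high cells, which summed to 5065 below the Il1b limit, 3998 in the selected cells and 26.5 in Saa3-low selected cells. In Saa3-low selected cells Thbs1 was at 322, Gngt2 at 131, Cd9 at 421, Lgals3 at 1406 and Gapdh at 677. These differences were not tested. The surface antibodies, further on, are the readout that the selection did not use.

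Of 15 genes of the interleukin-1 axis tested, a cytokine, a sensor and the antagonist (3 genes) were higher, 1 was lower and the other 11 did not pass, with a median log2 difference of 0.19 against -0.04 over all genes. With Saa3-low cells 3 were higher and 3 lower, with a median of -0.07 against -0.08. Nlrp3, the inflammasome sensor, lay between 530 and 1075 (median 732) in the selected cells and between 112 and 383 (median 154) in resident macrophages, without overlap. Its log2 fold change was 2.18 ± 0.23 (SE, n = 7; edgeR adjusted p = 9.22e-05). Il1a, encoding the membrane-bound sister cytokine, lay between 7.37 and 802 (median 214) against 2.47 to 49.9. It was higher in 6 of 7 mice, with mouse 2 the exception, and its log2 fold change was 3.60 ± 0.97 (edgeR adjusted p = 0.0448).

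Il1rn, the secreted receptor antagonist, lay between 51.6 and 541 (median 398) against 24.9 to 90.5 and was higher in 7 of 7 mice (log2 2.58 ± 0.48, edgeR adjusted p = 0.00920). It was lowest in mice 2, 5 and 10, of which 5 and 10 hold most Saa3-high cells. P2rx7, the ATP-gated channel that triggers NLRP3, was lower in all 7 mice, at 11.8 to 66.3 against 91.9 to 103 (log2 -1.78 ± 0.21, edgeR adjusted p = 3.71e-05). Casp1, the protease that cuts the precursor, had a log2 difference of -0.34 (edgeR adjusted p = 0.139). In Saa3-low cells the 3 raised genes passed again, and Casp1 and the sensor Nlrc4 were lower.

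NF-kB subunits, inhibitors and direct target genes formed the next list. Of 27 tested, 20 were higher and none lower, with a median log2 difference of 0.96, and with Saa3-low cells the counts were again 20 and 0, with a median of 1.05. Bcl2a1a lay between 76.4 and 259 (median 110) against 9.35 to 43.4 (log2 3.13 ± 0.17, edgeR adjusted p = 6.16e-08) and Bcl2a1b between 640 and 1646 against 110 to 333 (log2 2.76 ± 0.14, edgeR adjusted p = 3.82e-08). The Bcl2a1 genes are near-identical copies, so the split of reads among them, Bcl2a1d included, is uncertain. Tnfaip2, a TNF-induced gene, rose by log2 2.84 ± 0.66 (edgeR adjusted p = 0.0263) and was higher in 7 of 7 mice.

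Subunits and inhibitors of the pathway were both among the higher genes. The subunit genes Rel (416 to 991 against 236 to 422), Nfkb1 and Nfkb2 were higher by log2 1.20, 0.96 and 0.87, and the inhibitor gene Nfkbie (45.2 to 95.8 against 18.3 to 30.5, without overlap) by 1.75. Tnip3, which restrains the pathway with the deubiquitinase A20, lay between 63.7 and 523 (median 370) against 36.5 to 88.8 and was higher in 6 of 7 mice (log2 2.31 ± 0.42, edgeR adjusted p = 0.00751). Tnfaip3, which encodes A20, rose by 0.69 and Tnip1 by 1.33. Among the 7 that did not pass were Nfkbia, the first-line inhibitor (log2 0.35, edgeR adjusted p = 0.141), and Nfkbid (0.04, adjusted p = 0.879). The subunit gene Relb did not pass with all selected cells (0.59, edgeR adjusted p = 0.0861) and did with Saa3-low cells (0.58, adjusted p = 0.0216), while Rela passed with all (0.46, edgeR adjusted p = 0.0367) and not with Saa3-low cells (0.41, adjusted p = 0.0848).

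These genes are shown with a promoter stretch that matches the NF-kB consensus, since the list was defined by that pathway and its promoters could be read from the reference. A single stretch is shown per gene, and Nfkb2, Tnfaip3 and Nfkbid held further matching stretches. The 250 bases before each RefSeq transcript start (mouse build GRCm38.p6) were searched on both strands for the NF-kappaB consensus. Of the 22 list genes with a start in the table, 8 held a match (36.4%), against 1204 of 27025 genes overall (4.46%). The chemokine list held it in 6 of 19 genes, the cytokine list in 5 of 15, and the interleukin-1 list in 3 of 15. It was also held in lists that fell or moved both ways, by 4 of 19 interferon genes, 4 of 25 immediate-early and heat-shock genes and 3 of 14 genes of efferocytosis and complement. It was held by 0 of 20 monocyte, 0 of 16 lipid, 0 of 21 matrix and 0 of 22 resident genes. Each line gives 30 bases read 5′ to 3′ along the gene's strand, with the match in capitals.
Tnip3: gagacatcctGGGAAATCCCagttacatgg
Rel: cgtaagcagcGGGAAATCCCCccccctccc
Tnip1: ctccatcatgGGGGAATTCCCCtcctgcct
Nfkb2: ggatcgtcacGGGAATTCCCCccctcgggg
Nfkbie: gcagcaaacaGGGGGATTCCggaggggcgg
Tnfaip3: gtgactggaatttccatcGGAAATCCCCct
Nfkbia: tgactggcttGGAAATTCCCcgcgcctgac
Nfkbid: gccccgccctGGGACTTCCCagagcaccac

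The first 6 belong to genes that were higher in the selected cells and the last 2 to genes that did not pass. They lie at chr6:65590334-65590363 (plus strand) for Tnip3, chr11:23771042-23771071 (minus) for Rel, chr11:54962979-54963008 (minus) for Tnip1 and chr19:46304688-46304717 (plus) for Nfkb2. The others lie at chr17:45555584-45555613 (plus) for Nfkbie, chr10:19015411-19015440 (minus) for Tnfaip3, chr12:55492657-55492686 (minus) for Nfkbia and chr7:30422170-30422199 (plus) for Nfkbid. The matches begin 54, 92, 58, 39, 106, 12, 29 and 226 bases before the start in the order of the lines. A match describes the letters of the window and was present both in genes that rose and in genes that did not.

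**Figure D3:**
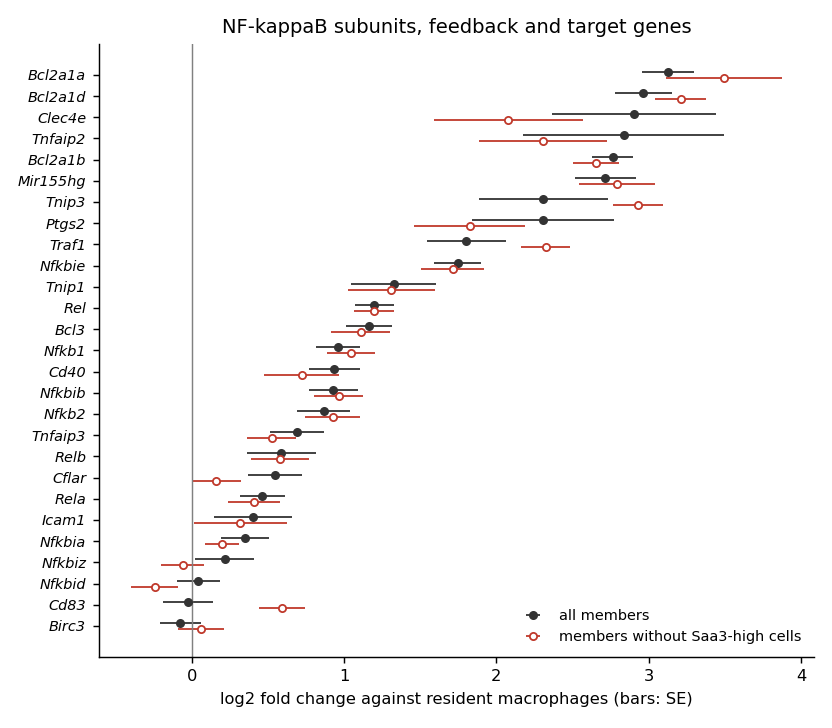
Log2 fold change of each tested gene of the NF-kB list, selected cells against resident macrophages (points are edgeR estimates, bars are SE), for all selected cells (filled) and for Saa3-low cells (open). Of the 27 genes 20 were higher and none lower in either version, and over all selected cells the estimates ran from 3.13 for Bcl2a1a to -0.08 for Birc3.

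Of 25 chemokines and chemokine receptors 7 were higher and 1 lower, and with Saa3-low cells 6 were higher and 3 lower of 26. Cxcl2, a ligand of the neutrophil receptor CXCR2, stood at 10568 to 22137 (median 16628) against 6628 to 11519, and was higher in every mouse (log2 0.98 ± 0.23, edgeR adjusted p = 0.0191). Cxcl3 stood at 8.42 to 118 against 0 to 17.2 (log2 3.57 ± 0.60, edgeR adjusted p = 0.00433). Cxcl1 was higher by 1.93 (edgeR adjusted p = 0.0349), but by 0.58 with Saa3-low cells (adjusted p = 0.403), and Saa3-high cells held 2833 and Saa3-low cells 822. Ccl8, a monocyte-attracting chemokine, was lower in 7 of 7 mice, at 0 to 121 (median 2.22) against 126 to 429 (log2 -3.70 ± 0.74, edgeR adjusted p = 0.0140), and it was highest in mouse 9.

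Of 22 cytokines and growth factors, 9 were higher and 3 lower (12 and 4 of 21 with Saa3-low cells). Thbs1, the matricellular thrombospondin, lay between 284 and 3720 (median 370) against 7.90 to 161 (log2 4.02 ± 0.76, edgeR adjusted p = 0.0127), and the 2 highest mice, 5 and 10, are those rich in Saa3-high cells. Tnfsf9, encoding the ligand of 4-1BB, lay between 619 and 1255 against 107 to 339, without overlap (log2 2.40 ± 0.26, edgeR adjusted p = 0.000171). Tnf rose by 1.42 ± 0.21 (edgeR adjusted p = 0.00048) and Osm, oncostatin M, by 1.75 ± 0.36 (adjusted p = 0.0106), each in 7 of 7 mice. With Saa3-low cells Osm rose by 0.90 (edgeR adjusted p = 0.000342), higher in 6 of 8 mice, and Saa3-high cells held 580 and Saa3-low cells 167. Il6 rose by 3.12 (edgeR adjusted p = 0.00480) with all selected cells and by 0.81 (adjusted p = 0.463) with Saa3-low cells. The growth factor genes Pdgfc (0 to 14.7 against 66.2 to 91.2) and Igf1 (52.6 to 181 against 243 to 391) fell in every mouse, by 3.57 and 1.11 on the log2 scale.

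Of 21 genes of proteolysis, 10 were higher and 2 lower (11 and 3 with Saa3-low cells). Over all genes tested 10.0% were higher and 10.8% lower, so the 2 lower genes lie near that share. Plaur, the urokinase receptor, lay between 103 and 360 (median 239) against 40.8 to 107 (log2 2.21 ± 0.29, edgeR adjusted p = 0.000508), higher in each mouse. Ctss, the elastinolytic cathepsin S, rose by 0.82 and Adam17, the sheddase that releases TNF, by 0.57. Mmp9, gelatinase B, fell by 3.02 on the log2 scale (0 to 25.3 against 30.5 to 75.9; edgeR adjusted p = 0.000643), and Ctsb, cathepsin B, fell by 0.69. Mmp12, which names the population, is 1 of the 10.

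Genes of lipid-associated macrophages were partly present. Of 22, 10 were higher and none lower (11 and 1 with Saa3-low cells). Spp1, which names the population, is 1 of the 11 and did not pass with all selected cells. Cd9, a tetraspanin, lay between 130.5 and 539 (median 407) against 51.1 to 125 (log2 2.61 ± 0.35, edgeR adjusted p = 0.0011), Lgals3, galectin-3, rose by 1.45 and Syngr1 by 2.67, each in 7 of 7 mice. Fabp4, a fatty acid carrier, passed narrowly with all selected cells (3.03, edgeR adjusted p = 0.0498) and not with Saa3-low cells (1.90, adjusted p = 0.0787). Trem2, the lipid-sensing receptor of this programme, had a log2 difference of -0.24 (edgeR adjusted p = 0.747), with 517 and 612 in the aneurysm mice, above the 243 to 306 of resident macrophages, and 80.0 to 305 in the other 5.

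The monocyte list had 9 of 22 genes higher and none lower (9 and 1 of 21 with Saa3-low cells), and the resident list none higher and 19 of 31 lower, with a median log2 difference of -1.94. With Saa3-low cells 29 of 30 resident genes were lower and 1 was higher, Cd5l. Cd14, the co-receptor for endotoxin, lay between 1519 and 3185 (median 2785) against 597 to 1166, without overlap (log2 1.80 ± 0.17, edgeR adjusted p = 1.8e-05). The blood-monocyte gene Ly6c2 was not tested, at 0 in 5 of the 7 mice and at most 9.76. Fn1 passed with all cells (2.68, edgeR adjusted p = 0.0492) but not with Saa3-low cells (1.23, adjusted p = 0.278).

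Among the resident genes, the haemoglobin scavenger receptor Cd163 lay between 14.6 and 177 (median 21.5) against 986 to 1396 and fell by 4.94 on the log2 scale (edgeR adjusted p = 0.000451). With Saa3-low cells it fell by 4.10 (edgeR adjusted p = 0.00282), with mouse 5 at 583. The C-type lectin genes Cd209f, Cd209g and Cd209d fell by 6.20, 5.66 and 5.24, all in 7 of 7 mice. Summed over cells, the selected ones held these 3 at 2.62, 1.37 and 1.48 and Cd163 at 28.1. B cells held them at 4.06, 2.93, 0.451 and 22.1, so the exact size of these falls is uncertain. Maf, a transcription factor of resident macrophages, stood at 117 to 398 against 1327 to 1857, and Mrc1, encoding CD206, at 122 to 582 against 1887 to 2144. None of these ranges overlapped. They were counted in the same cells that the 4 resident genes of the selection had divided.

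Class II antigen presentation divided the selected cells. With all of them, 2 of 12 genes were higher and 1 lower, and H2-Aa ran from 535 to 9257 (median 4003) against 1389 to 3004 (log2 0.81, edgeR adjusted p = 0.304). It was below resident macrophages in mice 5 and 10 (535 and 915) and above them in the other 5. With Saa3-low cells 10 of 12 were higher and none lower, among them H2-Aa (1.58, edgeR adjusted p = 7.15e-22) and Cd74 (1.60). Dendritic cell genes, whose cells carry abundant class II, had 2 of 8 higher there, Flt3 (1.81, edgeR adjusted p = 0.0114) and Dpp4 (1.71), and 1 lower, with a median log2 difference of 0.94 against -0.08 over all genes. Flt3 was at 13.03 and Dpp4 at 8.13 in Saa3-low cells. Pooled over mice, the 11 dendritic cell genes summed to 105 there against 116 in resident macrophages. Aneurysm mice supply most of those cells. Over all selected cells these genes summed to 509 against 114 in mouse 2 and 215 against 95.8 in mouse 8. The other mice were at 14.7 to 92.4 against 87.4 to 150, each lower. In Saa3-low cells of mice 1 and 8 the antibodies XCR1 (2.71 and 2.83 counts per cell) and class II (1345 and 1121) were highest. The part of dendritic cells in the class II difference was not tested.

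Of 27 glycolytic and hypoxia-related genes, 14 were higher and 3 lower, with a median log2 difference of 0.87, and with Saa3-low cells 12 and 2 of 25, with a median of 0.58. Gapdh rose by 1.17, Eno1 by 1.10 and Ldha, lactate dehydrogenase, by 1.07 (119 to 375 against 112 to 165), each in 7 of 7 mice, and Ndrg1, a hypoxia-induced gene, by 2.25. The hexokinase gene Hk3 and Pfkfb3, an activator of glycolysis, fell by 0.70 and 0.99 on the log2 scale.

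JAK-STAT genes were read because Jak2 is the mutated locus, although expression does not show which allele was read. Of 30, 9 were higher and 3 lower (8 and 4 with Saa3-low cells). Jak2 lay between 27.4 and 111 (median 41.2) against 17.8 to 36.3 and was higher in 7 of 7 mice (log2 0.88 ± 0.18, edgeR adjusted p = 0.00304), including the Jak2WT mice 2 and 5. Pim1, a STAT-induced kinase, lay between 816 and 1165 against 249 to 604 (log2 1.55 ± 0.15, edgeR adjusted p = 6.14e-06) without overlap, and Socs3, the feedback inhibitor, rose by 0.70. Csf2rb, the shared chain of the GM-CSF, IL-3 and IL-5 receptors, rose by 0.89 and Epor, the erythropoietin receptor, fell by 3.09 on the log2 scale.

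Of 30 immediate-early and heat-shock genes, which also respond to tissue digestion, 2 were higher, 16 lower and 12 did not pass (2, 13 and 15 with Saa3-low cells). Jun stood at 546 to 2661 against 3170 to 5550 (log2 -1.86 ± 0.29, edgeR adjusted p = 0.00317), Hspa1a at 215 to 2440 against 2794 to 4686 and the CCN family gene Ccn1 fell by 4.66 on the log2 scale. The lowest Jun values were in mice 7, 8 and 9 and the highest in mice 2 and 6. Dusp2, a nuclear phosphatase, went the other way, by 2.35 in 7 of 7 mice. Of 20 interferon-stimulated genes 1 was higher and 4 were lower (0 and 4 with Saa3-low cells), among them Ifi27l2a and Stat2, and the others did not pass. The part of handling in these values was not tested.

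Genes of clearance, transcription factors and division completed the lists. Of 20 genes of efferocytosis and complement, 5 were higher and 4 lower (median log2 difference 0.27), but with Saa3-low cells 4 were higher and 9 lower (median -0.33). Axl, a receptor for apoptotic cells, stood at 21.5 to 154 against 16.4 to 37.7 (log2 1.74 ± 0.20) and Hmox1, haem oxygenase, at a median of 220 against 887, without overlap (log2 -1.64 ± 0.17). Of 24 transcription factors 4 were higher and 2 lower (7 and 3 of 23 with Saa3-low cells), among them Bhlhe40 (2.61) and Prdm1 (2.41) upward and Tcf4 (-1.35) downward. With Saa3-low cells Bhlhe40 was at 1.81, higher in 7 of 8 mice, and Prdm1 at 2.90. Saa3-high cells held Bhlhe40 at 411 and Prdm1 at 7.07, and Saa3-low cells 155 and 54.1. Id2 stood at 353 to 812 against 146 to 193 (log2 1.84 ± 0.14). Of 20 proliferation genes 3 were higher and none lower, also with Saa3-low cells, with Cks2 at 1.80, while Mki67 did not pass (0.76, edgeR adjusted p = 0.247).

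Outside the lists, the genes with the widest separation in every mouse were as follows. Upward they were Olr1, the receptor for oxidised LDL (log2 4.20), Gngt2 (3.76), the transglutaminase Tgm2 (3.26), Mcemp1 (3.21), Plxdc2 (3.14), the lectin Clec4d (3.10), Flrt3 (2.82), the glycogen phosphorylase Pygl (2.79), Arl5c (2.46) and Nfil3 (2.42). Olr1 ran from 22.1 to 662, with mice 5 and 10 at the top (531 and 662) and the aneurysm mice at 23.2 and 55.7. Downward they were Chp2 (-5.67), the water channel Aqp1 (-5.56), the EGF receptor Egfr (-5.02), Plekhg5 (-4.93), Rcn3 (-3.65), Fxyd2 (-3.58), Tns1 (-3.52), stem cell factor Kitl (-3.30), Tmod1 (-3.13) and Npl (-3.12). All 20 passed in the same direction with Saa3-low cells. Their differences shrank most for Mcemp1 (1.60), Pygl (1.42), Clec4d (2.16), Olr1 (3.46), Plxdc2 (2.505) and Tmod1 (-2.54). The others shrank less, except Arl5c (2.70) and Tns1 (-3.58), which grew. Saa3-high cells held Mcemp1 at 249, Pygl at 255, Clec4d at 599, Olr1 at 659.5 and Plxdc2 at 315, and Saa3-low cells 17.8, 21.8, 268, 38.5 and 66.1.

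Marker genes of other cell types were summed over their lists. The list with Saa3, Prg4 and other genes of Saa3-high cells (6 genes, Prg4 the most abundant at 1486) summed to 3998 in the selected cells and 207 in resident macrophages, with 11135 in mouse 5 and 15488 in mouse 10, and to 26.5 in Saa3-low cells. Genes of neutrophils (13 genes, 1 at 0) summed to 140 in the selected cells and 263 in resident macrophages, with Trem1 the most abundant at 32.1. In resident macrophages the sum was 807 in mouse 9 and 427 in mouse 2, and 75.7 to 231 in the others. Mmp9 is on this neutrophil list as well. Dendritic cell genes (11) summed to 81.0 against 116, B cell genes (8) to 126 against 235 and T, NK and innate lymphoid genes (12) to 67.7 against 33.4, mostly Il7r at 55.4. Mast cell and platelet genes (8, 1 at 0) summed to 48.8 against 51.5. In the 10 cells of mouse 2 mast cell and platelet genes summed to 1666, dendritic cell genes to 509 against 114 and T, NK and innate lymphoid genes to 265 against 56.7. Stromal genes (10) summed to 146 against 122, with Dcn at 50.2, and to 357 in mouse 9. Their part in single results was not tested.

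Antibody counts, which played no role in the selection, separated the populations at the cell surface. Of 73 antibodies tested on counts summed per mouse, 8 were higher in the selected cells (11.0%) and 4 were lower (5.48%; edgeR, mouse as a block). CD163 averaged 51.3 ± 18.4 counts per cell (SD, n = 7) against 793 ± 153, with no overlap, and fell by 3.66 ± 0.30 on the log2 scale (edgeR adjusted p = 1.57e-06). CD169, sialoadhesin, averaged 1.51 ± 0.39 against 7.74 ± 1.42 and fell by 2.03. Both scavenger and sialic acid receptors of resident macrophages thus followed their transcripts downward.

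Upward, CD9 averaged 51.9 ± 14.7 counts per cell against 15.6 ± 3.53 (log2 2.04 ± 0.30, edgeR adjusted p = 0.000376), and CD14 averaged 237 ± 44.2 against 87.5 ± 15.7 (log2 1.77 ± 0.27, adjusted p = 0.000411), both in 7 of 7 mice without overlap. The integrin CD11c averaged 19.4 ± 14.6 against 4.18 ± 1.07 (log2 2.09 ± 0.42, edgeR adjusted p = 0.00341), and it was above resident macrophages in 6 of 7 mice. ICAM1, the adhesion ligand of leukocyte integrins, rose by 1.14 and CD26, the peptidase DPP4, by 1.37. CD26 averaged 1.69 ± 1.28 counts per cell against 0.69 ± 0.24, and B cells held 1.28. It was highest in mice 2 and 8 (3.30 and 3.73), with the other mice at 0.551 to 1.48. It did not pass with counts scaled per cell (edgeR adjusted p = 0.0853) or by isotype controls (adjusted p = 0.205). CD80 (0.83) and CD300cd (0.97) were higher and CD86 fell by 0.86, and none of the 3 passed with Saa3-low cells. There CD80 was at 0.32 (edgeR adjusted p = 0.577). CD300cd (0.96, edgeR adjusted p = 0.0861) and CD86 (-0.82, adjusted p = 0.0561) kept about the same size. CD300cd was at the level of background, at 0.41 counts per selected cell. The isotype controls Hamster and Rat IgG1 were at 0.63 and 0.53 on the same cells, and Rat IgG2b at 0.10. With counts scaled per cell 4 antibodies were higher and 7 lower, and scaled by the isotype control antibodies 1 was higher (CD11b) and 2 lower, with CD163 and CD169 among the latter in both. Scaled by isotype controls, CD9 (log2 1.69, edgeR adjusted p = 0.0855) and CD14 (1.43, adjusted p = 0.141) did not pass.

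Saa3-high cells changed the antibody picture for CD11b, CD64 and TIM4. CD11b rose by 1.64 ± 0.37 (edgeR adjusted p = 0.00608) with all selected cells, and by 0.42 (adjusted p = 0.316) with Saa3-low cells. Saa3-high cells of mice 5 and 10 carried 1866 and 2331 CD11b counts per cell, against 188 and 250 in Saa3-low cells of the same mice. CD64, the high-affinity IgG receptor, fell by 1.20 with all selected cells and by 0.74 (edgeR adjusted p = 0.135) without them. In Saa3-low cells 9 antibodies were higher (12.3%) and 4 lower (5.48%), and class II (I-A/I-E, 1.01), CD44 (1.02), CD43 (0.80) and CD226 (1.32) were among the higher and TIM4 (-3.39) and CD39 (-0.67) among the lower.

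**Figure D4:**
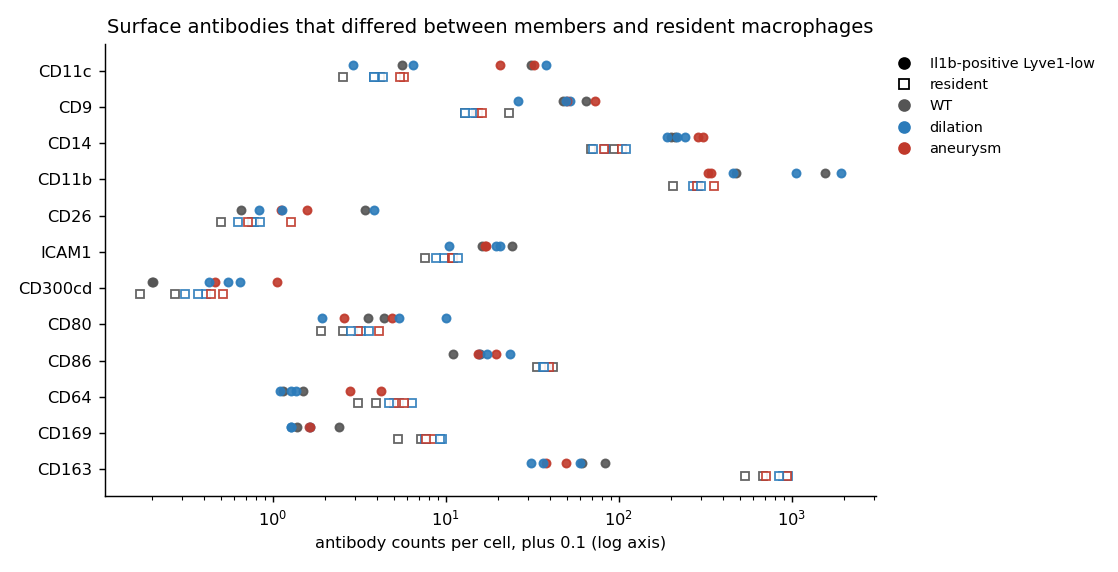
Antibody counts per cell, plus 0.1, on a log axis for the antibodies that passed the test, with 1 filled circle per mouse for selected cells and 1 open square for resident macrophages (7 mice, coloured by group). CD163 averaged 51.3 against 793 counts and CD9 51.9 against 15.6, without overlap, while CD11b was highest in mice 5 and 10.

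The selected cells were then described along 2 sides. A cell was on the Mmp12-Spp1 side with Mmp12 and Spp1 together at 5 or more UMIs per 10000, and on the Il1a-Nlrp3 side with Il1a and Nlrp3 together at 5 or more. Of the 513 cells, 42 were on the Mmp12-Spp1 side alone, 285 on the Il1a-Nlrp3 side alone, 77 on both and 109 on neither. Of the 103 Saa3-high cells, 98 were on the Il1a-Nlrp3 side alone and none on the Mmp12-Spp1 side alone.

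The sides did not part the aneurysm cells into separate groups. In mouse 7, 71.8% of cells with Mmp12-Spp1 were also on the Il1a-Nlrp3 side, against 69.7% of cells without. In mouse 9 the shares were 62.2% and 65.4%. Across single Saa3-low cells, which share their library and mouse, Spearman's rho between the 2 sums was -0.01 (171 cells) and 0.07 (178 cells), given as a description. Between 3 and 7 UMIs per 10000, near the limit, lay 54 cells for Mmp12-Spp1 and 117 for Il1a-Nlrp3.

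Mmp12-Spp1 cells were more frequent in aneurysm mice when all selected cells were counted. They made up 22.7% and 41.6% in mice 7 and 9 and 0% to 4.48% in the other 5 mice with at least 10 selected cells, means of 32.1% and 1.71% (exact permutation test, p = 0.0476, the smallest that 2 against 5 allows). Among Saa3-low cells the other mice ranged from 0% to 23.1%, highest in mouse 10, with means of 32.2% and 8.08% (exact permutation test, p = 0.0714). The share on the Il1a-Nlrp3 side alone averaged 46.1% in aneurysm mice and 68.6% in the others, a difference of -22.4 points (exact permutation test, p = 0.0952), and with Saa3-low cells the difference turned to 2.64 points (p = 0.893).

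**Figure D5:**
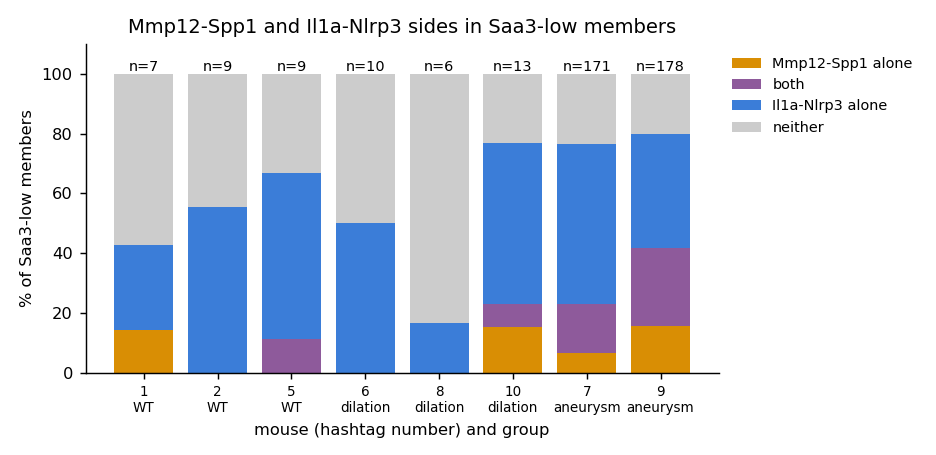
Make-up of the Saa3-low selected cells of each mouse by side, in percent of its cells, with the number of cells above each bar, for the 8 mice with at least 5 such cells. Cells with Mmp12-Spp1, alone or with Il1a-Nlrp3, made up 22.8% and 41.6% in aneurysm mice 7 and 9 and up to 23.1% in the others.

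Within the 2 aneurysm mice, cells on the Mmp12-Spp1 side alone (39 cells) were compared with cells on the Il1a-Nlrp3 side alone. Of 6675 genes, 5 were higher and 5 lower (0.0749% each; edgeR, mouse as a block). The higher ones included cathepsin D Ctsd (1926 and 2172 in mice 7 and 9, against 573 and 778), by log2 1.49 ± 0.17 (edgeR adjusted p = 0.00422). Gpnmb (284 and 148 against 31.0 and 3.64), the fatty acid carrier Fabp5 (237 and 438 against 72.4 and 98.2) and Syngr1 were higher by log2 3.71, 1.86 and 2.37. The fifth, Bgn, encodes the matrix proteoglycan biglycan and rose by 4.10, at 137 in mouse 9, in whose cells stromal genes were also high. Stromal genes summed to 805 in cells on the Mmp12-Spp1 side alone, 433 in cells on both and 17.1 on the Il1a-Nlrp3 side alone among Saa3-low cells.

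The lower ones were the chemokine genes Ccl12 (182 and 51.3 against 573 and 325; log2 -2.31) and Ccl3 (1247 and 599 against 2747 and 1254; log2 -1.22), the EGF-family ligand Areg (-1.97), Kctd12 (-1.42) and the haemoglobin gene Hba-a1 (-6.44), at 0 and 9.16 against 13.5 and 761. All 10 genes differed in the same direction in both mice. With Saa3-low cells 5 and 4 of 6706 genes passed (0.0746% and 0.0596%), and Areg (edgeR adjusted p = 0.0826) and Kctd12 (adjusted p = 0.0987) did not. Il1b itself, which was not tested, stood at 3418 and 3318 on the Mmp12-Spp1 side and at 5905 and 6052 on the Il1a-Nlrp3 side. With 2 mice the spread rests on few degrees of freedom, and without the mouse as a block 0 genes passed. No antibody passed between the sides (1 of those tested had an unadjusted p under 0.05).

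The last comparison asked whether the selected cells themselves differed between aneurysm and no aneurysm. With all selected cells, 79 of 7754 genes were higher in the aneurysm mice (1.02%) and 169 lower (2.18%; edgeR, 2 against 5 mice). Higher were Mmp12 (a naming marker), Trem2 (1.91), Axl (1.51), Cd72 (2.81) and Pdpn (3.89), and lower C4b (-5.35), Gata6 (-4.28) and Prtn3 (-7.59). The 3 lower genes named were abundant in Saa3-high cells: C4b stood at 1225 in Saa3-high and 9.66 in Saa3-low cells, Gata6 at 43.3 and 1.23 and Prtn3 at 285 and 1.07. Of the higher genes named, Mmp12 (6.63 against 175) and Trem2 (42.9 against 537) were scarce there. So were Axl (14.1 against 142) and Cd72 (3.09 against 321). The 5 other mice pool Jak2WT and dilation mice. With the 3 groups apart, 0 and 0 genes passed against Jak2WT (933 at an unadjusted p under 0.05) and 3 and 7 against dilation (edgeR), and of the 8 genes named here Mmp12 and Gata6 passed against dilation and none against Jak2WT. The counts moved with single mice: 0 and 0 passed without mouse 9, 18 and 3 without mouse 7, 17 and 38 without mouse 5, 22 and 38 without mouse 10, and 214 and 321 without mouse 2.

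When Saa3-high cells were left out, 1 of 2316 genes tested was higher (0.0432%) and 0 lower, with 121 at an unadjusted p under 0.05 (edgeR, 2 against 6 mice). That gene was the histone gene Hist1h1b, at 74.5 and 134 in mice 7 and 9 and at 0 to 9.71 in the others, so that it entered the test through the aneurysm mice, where it is high. Without mouse 2, 6, 8, 9 or 10, 0 genes passed in either direction (17 to 173 at an unadjusted p under 0.05; edgeR). Of the 248 genes first called, 36 were tested there, all with the same sign, and none passed. Trem2 stood at 1.01 (edgeR adjusted p = 0.855), Mmp12 at 0.91 and Axl at 0.09. The 6 other mice supply 6 to 13 Saa3-low cells each, which limits the genes that could be tested. Spp1 and Ccr2, read as levels, overlapped between the groups.

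Whether the difference from resident macrophages changed with aneurysm was tested as an interaction. Over all selected cells it was more positive in aneurysm for 30 of 9897 genes (0.303%) and more negative for 94 (0.950%; edgeR), and over Saa3-low cells for 18 and 8 of 9872 (0.182% and 0.0810%). The Saa3-low counts were 5 and 1 without mouse 9 and 32 and 10 without mouse 7, and 13 to 23 and 12 to 21 without any one of mice 1, 2, 5, 6, 8 and 10. Of the 20 proliferation genes, 3 were among the 18, Stmn1 (log2 2.36 ± 0.38, edgeR adjusted p = 1.56e-05), Ube2c (5.45) and Birc5 (3.18). Mice without aneurysm supply 6 to 13 Saa3-low cells each here, against 171 and 178 in mice 7 and 9. Scarce genes could therefore be read less well without aneurysm, and these sizes are uncertain. Within the selected cells, 0 of 19 proliferation genes had passed between aneurysm and no aneurysm, and 0 of 7 with Saa3-low cells (edgeR). Mcm7 (4.36), Pclaf (4.87), Il6 (3.09) and Ccl8 (3.50) were also among the 18. Others of the 18, Mfap4, Mfap5, Col1a1, Col3a1 and Ogn, are genes of fibroblasts, and in mouse 9 stromal genes summed to 357 in the selected cells and 32.1 in resident macrophages, against 22.8 and 26.6 in mouse 7. In mice 8 and 10 the resident macrophages held 237 each, against 12.6 and 18.5 in the selected cells. Hbegf, an EGF-family ligand, was among the 8 (-1.94). These genes were named after their values were seen.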

How the data were processed

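Aortic leukocytes of 10 mice were stained with hashtag and surface antibodies, sorted and run as 1 droplet library. The authors deposited UMI counts per gene and antibody (counts, not normalized), made with Cell Ranger 6.0.2 (matrix header) and the mm10 genome per the labels. The submitters' processing notes name Seurat 3.0.0, which was not needed here. A barcode was given to a mouse where its top hashtag had at least 3 times the count of the next, which dropped 1275 of 8471 barcodes, and cells needed mitochondrial UMIs of at most 10% and at least 3000 gene UMIs. Pairs of cells from 2 mice are lost by the hashtag limit, pairs from 1 mouse are not, and no doublet caller was run. The members, the gene lists and the sides were chosen with earlier results of these data known, and the Saa3 limit was set after the values were seen.

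Counts were summed per mouse and population where both held at least 10 cells (Saa3-low cells, at least 5) and tested with edgeR 4.0.16 in R 4.3.3 (filterByExpr, TMM, robust quasi-likelihood F test, Benjamini-Hochberg adjusted p under 0.05 over all features tested). The mouse entered as a block because both populations come from the same animals. SE is the log2 fold change divided by the root of F. Genes of the selection rule were not tested, nor were Mmp12, Spp1, Il1a and Nlrp3 between the sides. Shares were compared by exact two-sided permutation tests over mice, and intervals cover counting error only. Each mouse is 1 animal. The steps were tested on simulated counts. DESeq2 1.42.0 and other limits were tried as alternatives.

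Named genes are, for each list, up to 4 called genes per direction with the largest change that moved alike in every mouse, and outside the lists the 10 largest in each direction with a mean of at least 50 CPM (UMIs per 1000000) in 1 group. Genes named beyond it, such as Il1a, H2-Aa, Cd74, Trem2, Mrc1, Maf, Casp1, Fabp4, Ly6c2 and the genes of the promoter lines, were chosen after their values were seen. Promoter stretches come from RefSeq for GRCm38.p6. The result of 1 named gene is not reported here.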

Additional observations from a re-analysis of the deposited data

Results flagged for a closer look

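Jak2WT mouse 5 stood apart from the other 4 Jak2WT mice in 3 measures: 19.8% of its macrophages and 8.36% of its kept cells were selected, and 81.6% of its selected cells were Saa3-high. Its share was 5.29% once Saa3-high cells were left out, inside the range of the other Jak2WT mice. Among mice without aneurysm, dilation mouse 10 stood apart in Spp1, at 108 UMIs per 1000000 over all selected cells and at 847 over its 13 Saa3-low cells. In all, 15 groups were looked at for such a mouse and 5 stood out, where chance alone gives about 1 in 20.

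The change from resident macrophages differed between mice with and without aneurysm (interaction, edgeR, all selected cells) for these 17 of the genes named for the aneurysm comparison. It was more positive in aneurysm for Ccl8 (log2 4.09), Pmepa1 (2.08), Tns3 (1.90) and Clec4n (1.80). It was more negative for Hdc (-7.49), Prtn3 (-6.81), C4b (-5.02), Cfb (-3.35), Gm1673 (-3.09), 4930455G09Rik (-2.97), Ifitm6 (-2.83), Colec12 (-2.67), Mgst1 (-2.54), Tnfsf13 (-2.26), Evi5 (-2.17), Ptgs1 (-1.76) and Timp2 (-1.62). With Saa3-low cells only Ccl8 (3.50) and Hdc (-5.55) of these 17 passed. Hdc is counted on the neutrophil list, whose genes summed to 807 in resident macrophages of mouse 9. Mast cell and platelet genes summed to 1666 in the selected cells of mouse 2, without aneurysm, and to 4.21 to 36.0 in the other mice. In resident macrophages they were at 173 in mouse 9 and 18.7 to 27.2 in the others. The part of such cells in the Hdc value was not tested.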

How the results depend on the processing

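The aneurysm share kept its direction and its call under every other limit on hashtags, mitochondrial UMIs, depth, C1q, Il1b and resident genes, and without any single mouse of the other 8. Leaving out mice in turn gave 24.8 to 29.2 points (exact permutation p = 0.111 without either aneurysm mouse), -1.71 to 4.37 for dilation against Jak2WT and 7.39 to 15.4 for Jak2V617F Myel. With Saa3-low cells dilation against Jak2WT was -0.32 points. The Il1a-Nlrp3 share differed by -39.1 points (exact permutation p = 0.0476) at a side limit of 2, by 2.64 in Saa3-low cells and by -30.4 to -14.5 with mice left out, and the Mmp12-Spp1 share by 24.1 in Saa3-low cells (exact permutation p = 0.0714).

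Against resident macrophages 685 genes were lower with sums of at least 20 cells and 709 with Il1b at 10 or more, and 737 to 1007 were higher and 791 to 995 lower with mice left out (662 to 973 and 834 to 1182 in Saa3-low cells). Without the mouse as a replicate block 1363 were higher and 1271 lower. DESeq2 kept all 91 named calls, and no named gene with a call turned its direction under any alternative.

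Counts for aneurysm within the selected cells, higher and lower, were 39 and 186 with DESeq2, 441 and 558 without a filter, 48 and 74 with sums of at least 5 cells, 819 and 1016 with at least 20, 220 and 315 at a hashtag ratio of 5, 749 and 928 with Il1b at 10, 3 and 7 against dilation, 0 and 0 against WT (933 at an unadjusted p under 0.05), and 1 and 0 in Saa3-low cells. With mice left out they ran from 0 to 214 and 0 to 321, and in Saa3-low cells 0 to 4 and 0 to 1. Interactions in Saa3-low cells numbered 18 and 8, and 5 to 32 and 1 to 21 with mice left out. Between the sides the counts were 3 and 1 with DESeq2, 35 and 72 without a filter, 7 and 14 at a hashtag ratio of 5, and 0 and 0 without a replicate block. Antibody counts were 4 and 7 per cell, 1 and 2 by isotype controls, 10 and 7 with DESeq2, 9 and 5 without the block, and 6 to 7 and 2 to 5 with mice left out. The cause of these shifts was not tested.

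Side comparisons without mouse 7 or 9, with at least 20 cells or with Il1b at 10 could not be fitted, since too few mice remained. Mice other than 7 and 9 hold few Saa3-low cells, and 3000 UMIs per cell leave scarce transcripts unread.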
